A study of Mus musculus with 12 samples.

Results

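The 8 genes described here encode enzymes that break down the aromatic amino acids tyrosine and tryptophan: Tat, Hpd, Hgd and Fah of the tyrosine route, and Tdo2, Kmo, Kynu and Haao of the tryptophan route. They were taken by name, with no threshold on their values, from the 24062 genes of the count tables, and all 8 had a row and passed the filter on low counts that left 12481 genes. The libraries are RNA-seq of liver from female C57BL/6J mice, which were 6 weeks old at arrival, acclimated for 2 weeks and put on the control diet 3 days before the experiment. The control group (n = 6) stayed on that diet, and the BIBB-515 group (n = 6) received a matched diet dosed with the compound at 55 mg/kg for 10 days, in a study of 11 mice per group. BIBB-515 inhibits lanosterol synthase (Lss), an enzyme of cholesterol synthesis, and the question addressed is what this treatment did to liver transcripts. Both groups are the same unmodified inbred strain, with no transgene, and each library is labelled as 1 mouse.

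The liver is the main site of aromatic amino acid breakdown. Tyrosine loses its amino group to Tat, is converted by Hpd to homogentisate, is opened by Hgd and, after an isomerisation by Gstz1, is split by Fah into fumarate and acetoacetate, one fuel for gluconeogenesis and one ketone body. Loss of FAH, HGD, HPD or TAT causes the inherited tyrosinemias and alkaptonuria. Tryptophan enters the kynurenine route through Tdo2, and Afmid, Kmo, Kynu and Haao carry it on towards quinolinate, from which NAD can be made. Tat and Tdo2 are textbook examples of liver genes induced by glucocorticoids, and Tat also responds to glucagon.

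Tat lies at chr8:109990436-109999804, Hpd at chr5:123171807-123182686, Hgd at chr16:37580153-37632026 and Fah at chr7:84585159-84605942 of the mouse build mm10. Tdo2 lies at chr3:81958414-81975728, Kmo at chr1:175632193-175660853, Kynu at chr2:43555325-43683048 and Haao at chr17:83831354-83846790. The promoters of 4 of the genes are shown, and these genes were picked by values given below. Tat and Tdo2 varied most between mice of their routes, and Haao with Tat and Hgd with Hpd had the highest correlations under BIBB-515. No result below rests on the promoter sequences. Each line is the 250 bases before the annotated start in RefSeq on GRCm38.p6 (the assembly of mm10), read along the gene.
Tat, chr8:109990186-109990435, plus strand: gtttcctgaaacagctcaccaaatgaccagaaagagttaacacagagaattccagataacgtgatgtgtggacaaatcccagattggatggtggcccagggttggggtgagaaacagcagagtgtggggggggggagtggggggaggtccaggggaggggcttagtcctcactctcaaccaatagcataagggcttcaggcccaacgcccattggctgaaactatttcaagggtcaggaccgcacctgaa
Hgd, chr16:37579903-37580152, plus strand: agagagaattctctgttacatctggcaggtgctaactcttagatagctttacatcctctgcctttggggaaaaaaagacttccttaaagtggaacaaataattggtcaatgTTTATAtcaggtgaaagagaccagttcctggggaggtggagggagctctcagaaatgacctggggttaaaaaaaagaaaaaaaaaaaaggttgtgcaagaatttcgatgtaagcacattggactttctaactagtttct
Tdo2, chr3:81975729-81975978, minus strand: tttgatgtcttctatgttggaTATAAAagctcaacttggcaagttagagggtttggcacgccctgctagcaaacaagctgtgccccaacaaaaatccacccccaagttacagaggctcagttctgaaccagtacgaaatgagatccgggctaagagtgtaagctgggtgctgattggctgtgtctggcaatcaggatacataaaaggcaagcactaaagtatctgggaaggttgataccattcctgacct
Haao, chr17:83846791-83847040, minus strand: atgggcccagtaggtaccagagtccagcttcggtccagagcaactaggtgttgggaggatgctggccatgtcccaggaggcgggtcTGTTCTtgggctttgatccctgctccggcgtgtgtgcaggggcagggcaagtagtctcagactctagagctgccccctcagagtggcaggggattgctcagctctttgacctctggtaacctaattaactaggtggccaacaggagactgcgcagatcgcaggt
Capitals mark the matches to the motifs searched on both strands, which were TGTTCT (one arm of a glucocorticoid response element), TTGCGCAA (a C/EBP palindrome), the HNF1 motif and the TATA box core TATAAA, none of which overlapped another in these windows. Among the 7 of 8 genes that RefSeq's promoter table held (all but Kynu), TGTTCT was present only in Haao, 164 bases before the start, against 16.1% of all 32851 promoters of the same length. TATAAA was present in Tdo2 at 229 bases before the start and, on the opposite strand, in Hgd at 139 bases, against 12.4% of all promoters. TTGCGCAA and the HNF1 motif were in 0 of the 7, against 0.164% and 0.00913% of all promoters. The Fah promoter held 16 CpG dinucleotides, the Tat and Tdo2 promoters 3 each and the Hgd promoter 1, beside a median of 6 over all promoters. A match describes these letters only.

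The 12 libraries held 22764819 to 31058370 counts on genes (22764819 to 27914647 in control and 24223939 to 31058370 in BIBB-515), and each of the 8 genes had between 2861 and 110226 counts per library, so counting error was small beside the spread between mice. The 20 most abundant genes took 27.7% to 29.8% of the counts in control libraries and 23.6% to 25.2% in BIBB-515 libraries. Hepatocyte markers were abundant in all 12 libraries. Of the 6 listed, Alb, Ttr and Serpina1c were lower under BIBB-515, and the other 3 did not pass an FDR of 0.05 (edgeR). The summed level of the list ran from 142525 to 160792 CPM (counts scaled to library size) in control and from 107550 to 121932 CPM in BIBB-515. Most of that sum was Alb, with means of 120094 CPM in control and 90923 CPM under BIBB-515. None of the 7 Kupffer cell markers, 4 tested leukocyte markers, 5 bile duct markers or 5 endothelial markers passed (edgeR, FDR under 0.05). Of these, 0, 0, 1 and 0 had an unadjusted p under 0.05, and the summed levels of each list overlapped between the diets. Among all tested genes, 13.7% passed in either direction, so lists this short would hold few calls at that share. A missed threshold does not show equal levels. Of 5 stellate cell markers, Lrat and Dcn were lower. Of 6 fat markers, Adipoq, Plin1, Lep and Cfd were below the filter, while Car3, which hepatocytes also express, was higher. Cidec, the other tested fat marker, had a log2 fold change of 0.59 (edgeR, FDR 0.162, unadjusted p = 0.0472). All 4 kidney markers were below the filter with at most 1 read in any library. In bulk liver, fewer cells of a type and less RNA per cell cannot be told apart, and the part these marker differences have in the values below was not tested.

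Differential expression analysis called none of the 8 genes: 0 of 8 passed an FDR of 0.05 with edgeR's quasi-likelihood test, beside 13.7% of all tested genes (7.18% higher and 6.48% lower). At an unadjusted p under 0.05 the count was also 0 of 8, beside 29.7% of all tested genes. DESeq2, limma-voom and edgeR's likelihood ratio test likewise called 0 of 8. The difference between the diets was positive for 4 genes and negative for 4, with a median log2 fold change of -0.003 and a median size of 0.10, beside -0.01 and 0.14 over all tested genes. None of the 8 had groups that did not overlap, which 7.07% of all tested genes had. A missed threshold does not show equal levels, and the 95% intervals give the differences these data allow. For the 7 genes other than Tat they lay between 0.813-fold and 1.30-fold of control, and for Tat between 0.576-fold and 1.28-fold. Counts were simulated from these libraries for the BIBB-515 comparison, with 12374 genes of which 200 were changed. There the test recovered 100% of genes changed 2-fold, 70% of those changed 1.5-fold and 18% of those with the smallest change simulated, below 1.5-fold. These shares pool genes of all levels. The changed genes were also a smaller part of the total than the 13.7% called here, which makes the FDR threshold stricter. The shares therefore do not give the power of the test for the 8 genes.

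**Figure D1:**
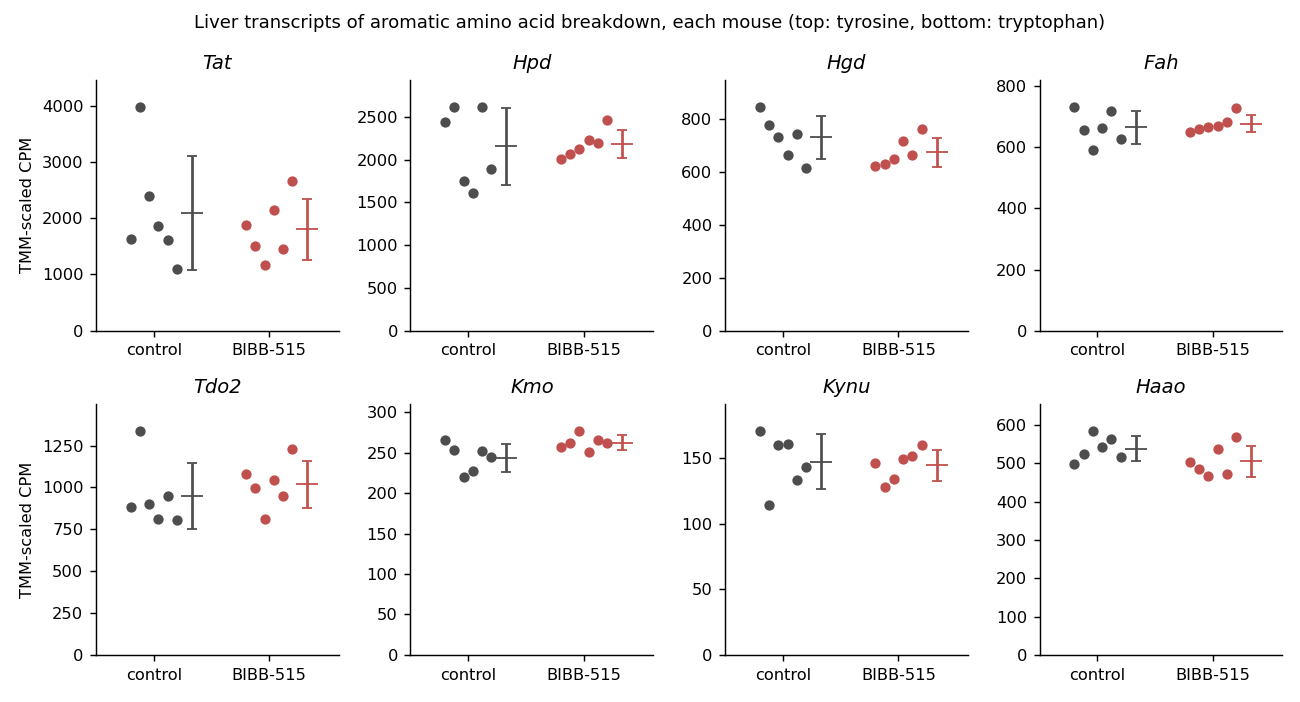
TMM-scaled CPM of the 8 genes in each mouse (points), with mean and SD beside them, for 6 control and 6 BIBB-515 livers. The groups overlap for every gene, and a single control mouse stands at 3989 CPM for Tat and 1338 CPM for Tdo2.

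The first step of tyrosine breakdown was the most variable. Tat, the tyrosine aminotransferase, had a lowest, median and highest level of 1096, 1750.4 and 3989 CPM in control livers and of 1166, 1692 and 2664 CPM in BIBB-515 livers. The BIBB-515 livers all lay within the control range, and the high end of that range was 1 mouse. Mean Tat was 2098 ± 1016 CPM (SD, n = 6) in control and 1802 ± 545 CPM (SD, n = 6) under BIBB-515, a log2 fold change of -0.22 (SE 0.27, 95% interval -0.80 to 0.36, FDR 0.633 with edgeR, two-sided exact permutation p = 0.645). Without control mouse 2 the log2 fold change was 0.07 (FDR 0.870 with edgeR), so its sign rested on that mouse.

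Hpd, the dioxygenase that makes homogentisate, ranged over 1612, 2163 and 2619.6 CPM (lowest, median, highest) in control and over 2007, 2162 and 2466 CPM under BIBB-515. The medians were nearly equal, and the BIBB-515 mice lay inside the control range. Its log2 fold change was 0.02 (SE 0.12, 95% interval -0.25 to 0.28, FDR 0.939 with edgeR, exact permutation p = 0.740). The sign turned without control mouse 3, 4 or 6 or BIBB-515 mouse 11, and the log2 fold change ran from -0.04 to 0.09 over the 12 fits that leave out 1 mouse.

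Hgd, which opens the ring of homogentisate, ranged over 617, 739.6 and 848 CPM in control and over 623, 657 and 764 CPM under BIBB-515. Of the 6 BIBB-515 mice, 5 were below the control mean, while all stayed within the control range. The log2 fold change was -0.12 (SE 0.09, 95% interval -0.30 to 0.07, FDR 0.391 with edgeR). Fah, the last enzyme of the route, was the most even of the tyrosine genes, at 591, 661 and 734 CPM in control and 652, 668 and 731 CPM under BIBB-515. Its means of 666 ± 54.3 and 678 ± 28.1 CPM (SD, n = 6 each) gave a log2 fold change of 0.03 (SE 0.07, 95% interval -0.12 to 0.17, FDR 0.842 with edgeR).

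In the tryptophan route, Tdo2, the dioxygenase that commits tryptophan to kynurenine, ranged over 806, 892 and 1338 CPM in control and over 811, 1020.5 and 1233 CPM under BIBB-515. Of the BIBB-515 mice, 5 of 6 were above the control mean, and the highest liver of all 12 was a control. The log2 fold change was 0.10 (SE 0.13, 95% interval -0.17 to 0.38, FDR 0.634 with edgeR), and without 1 mouse it ran from 0.04 (FDR 0.872), without BIBB-515 mouse 11, to 0.23 (FDR 0.140), without control mouse 2.

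Kmo, the monooxygenase that hydroxylates kynurenine, had the lowest p of the 8 genes. Its levels were 219.9, 248 and 266 CPM in control and 251, 263 and 277 CPM under BIBB-515. All 6 BIBB-515 mice were above the control mean of 244 CPM, 1 was above every control mouse, and the spread within BIBB-515 was narrow (SD 8.74 CPM, beside 17.3 CPM in control). The log2 fold change was 0.11 (SE 0.06, 95% interval -0.02 to 0.24, FDR 0.268 with edgeR). The two-sided exact permutation test of Kmo alone gave p = 0.0411, unadjusted among the 8 such tests run, and leaving out 1 mouse gave exact p-values from 0.00866 to 0.0931, with 8 of the 12 above 0.05.

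Kynu, the kynureninase, had levels of 114, 152 and 171 CPM in control and 128, 148 and 159.7 CPM under BIBB-515. The BIBB-515 mice lay within the control range, with a log2 fold change of -0.02 (SE 0.09, 95% interval -0.22 to 0.17, FDR 0.891 with edgeR) whose sign turned when scaled by library size only (0.03) and without control mouse 1, 3 or 4 or BIBB-515 mouse 7 (up to 0.02). Haao, the dioxygenase that yields the precursor of quinolinate, had levels of 498, 534 and 584 CPM in control and 466, 494 and 568 CPM under BIBB-515. Of the BIBB-515 mice, 5 of 6 were below the control mean and 3 were below every control mouse. The log2 fold change of Haao was -0.09 (SE 0.07, 95% interval -0.24 to 0.06, FDR 0.417 with edgeR, exact permutation p = 0.136). Without BIBB-515 mouse 11, the exact p of Haao was 0.0368.

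**Figure D2:**
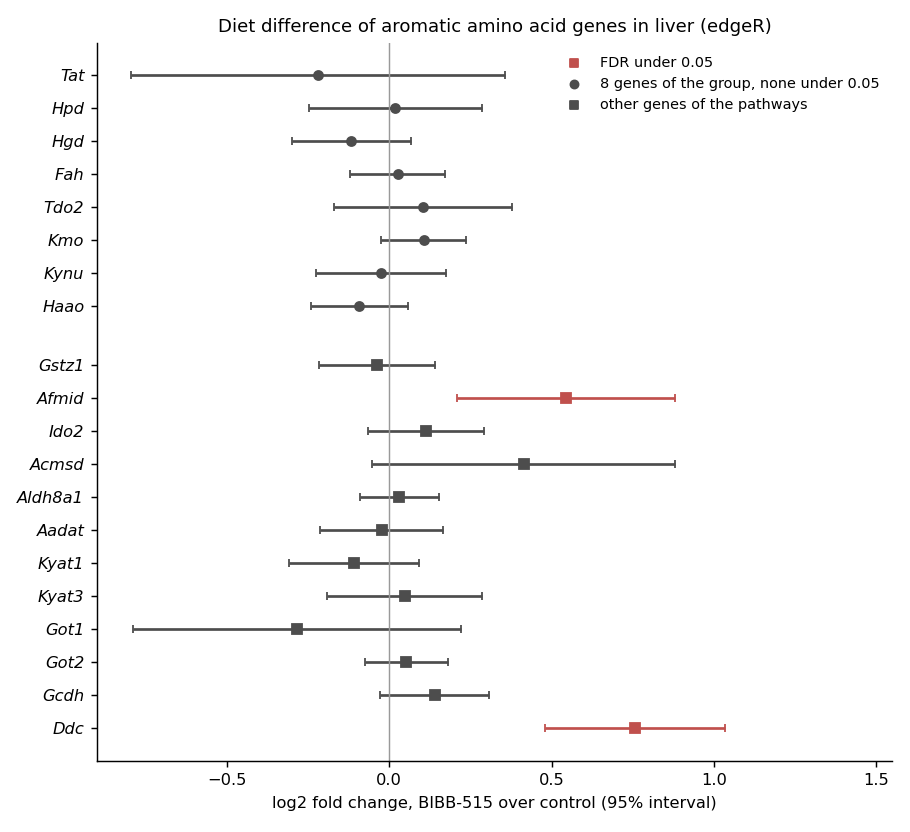
Log2 fold change of BIBB-515 over control with its 95% interval from edgeR, for the 8 genes (circles) and 12 of the 13 other tested genes listed for aromatic amino acid breakdown (squares). The intervals of all 8 genes hold 0, and of the other genes shown, Afmid at 0.54 and Ddc at 0.76 passed an FDR of 0.05.

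Among the other genes listed for aromatic amino acid breakdown, 2 were higher and 0 were lower of the 13 tested (edgeR, FDR under 0.05). Among all tested genes 7.18% were higher and 6.48% lower. Ido1, Il4i1, Hpdl and Tph1 were below the filter with at most 10 reads in any library. Ddc is on this list but is not a step of the tyrosine and tryptophan routes described above. Ddc, the aromatic amino acid decarboxylase, ranged over 27.5, 35.2 and 44.9 CPM in control and over 48.8, 61.1 and 76.4 CPM under BIBB-515. Every BIBB-515 mouse was above every control mouse. Mean Ddc rose from 36.1 ± 6.53 to 61.1 ± 10.5 CPM (SD, n = 6 each), a log2 fold change of 0.76 (SE 0.13, FDR 0.0017 with edgeR), and it kept its call in all 10 other settings and all 12 fits without 1 mouse.

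Afmid, the formamidase that acts between Tdo2 and Kmo, ranged over 81.4, 123 and 159 CPM in control and over 156, 167 and 217 CPM under BIBB-515. Of the BIBB-515 mice, 4 of 6 were above every control mouse. Mean Afmid rose from 119 ± 32.8 to 174 ± 22.6 CPM (SD, n = 6 each), a log2 fold change of 0.54 (SE 0.16, FDR 0.0338 with edgeR). It kept its call in all 10 other settings (FDR 0.0061 to 0.0338) but not in every fit without 1 mouse. The call was lost without control mouse 4 (FDR 0.0534), control mouse 6 (0.058), BIBB-515 mouse 7 (0.0593), BIBB-515 mouse 8 (0.0769) or BIBB-515 mouse 10 (0.0565). An exon of Afmid overlaps Tk1 on the opposite strand, the counting used no strand, and 41.3% of the 50-base stretches in its transcripts were also found in those of another gene, so its counts are uncertain. The 8 genes had no overlapping exon and at most 0.18% of such shared stretches.

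Neighbouring steps of the 8 genes did not pass the test in Gstz1, Acmsd and Qprt. Gstz1, the isomerase before Fah, had a log2 fold change of -0.04 (95% interval -0.22 to 0.14, FDR 0.803 with edgeR). Acmsd, which diverts the product of Haao away from quinolinate, was at 18.8 ± 7.66 and 25.1 ± 5.27 CPM, a log2 fold change of 0.41 (95% interval -0.05 to 0.88, FDR 0.222), and it passed without control mouse 3 (FDR 0.0242). Qprt, which turns quinolinate towards NAD, had a log2 fold change of -0.07 (95% interval -0.20 to 0.06, FDR 0.491). Gstz1 and Acmsd each overlap another gene, and 9.39% and 2.52% of their 50-base stretches were also found in transcripts of another gene.

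Further lists were read alongside, which were not chosen as genes serving the reactions of the 8 enzymes. Of 7 genes that make or recycle the cofactor tetrahydrobiopterin, 1 was higher, namely Gch1, its first synthetic enzyme, at 149 ± 17.5 CPM in control and 181 ± 18.5 CPM under BIBB-515 (log2 fold change 0.28, SE 0.09, FDR 0.0493 with edgeR). All 7 had a positive log2 fold change, from 0.04 to 0.28, beside a median of -0.01 over all tested genes. The Gch1 call was near the threshold and was kept only without control mouse 5 (FDR 0.0259) or BIBB-515 mouse 11 (FDR 0.0473) among the 12 fits without 1 mouse, whose FDR ran up to 0.108. Of 7 tested genes of NAD synthesis, 1 was lower, namely Nmrk1, the nicotinamide riboside kinase (40.3 ± 6.4 and 30.3 ± 5.87 CPM, log2 fold change -0.41, SE 0.13, FDR 0.0494 with edgeR). The FDR of Nmrk1 ran from 0.0349 to 0.103 without 1 mouse, above 0.05 in 8 of 12 fits and kept without control mouse 2 or 3 or BIBB-515 mouse 7 or 8. Of 7 tested carriers of aromatic amino acids, 0 passed an FDR of 0.05 (edgeR, 1 at an unadjusted p under 0.05). Among all tested genes, 13.7% were called in either direction, 7.18% higher and 6.48% lower. A count of 1 in 7 is near that 13.7%, so the counts of these lists do not set them apart.

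Of 14 genes of branched-chain amino acid breakdown, another catabolic route, 2 were higher and 0 lower, a share near the 13.7% called in either direction among all tested genes, with a median log2 fold change of 0.10 beside -0.003 for the 8 aromatic genes and -0.01 for all tested genes. Hibadh, of the valine branch, rose from 272 ± 11.8 to 345 ± 20.8 CPM (SD, n = 6 each; log2 fold change 0.34, SE 0.06, FDR 0.00206 with edgeR). Mccc1, of the leucine branch, was at 54.1 ± 5.63 and 62.9 ± 2.20 CPM (log2 fold change 0.22, SE 0.07, FDR 0.0493), with an FDR between 0.0201 and 0.1 without 1 mouse and a call kept only without control mouse 2 or 3.

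**Figure D3:**
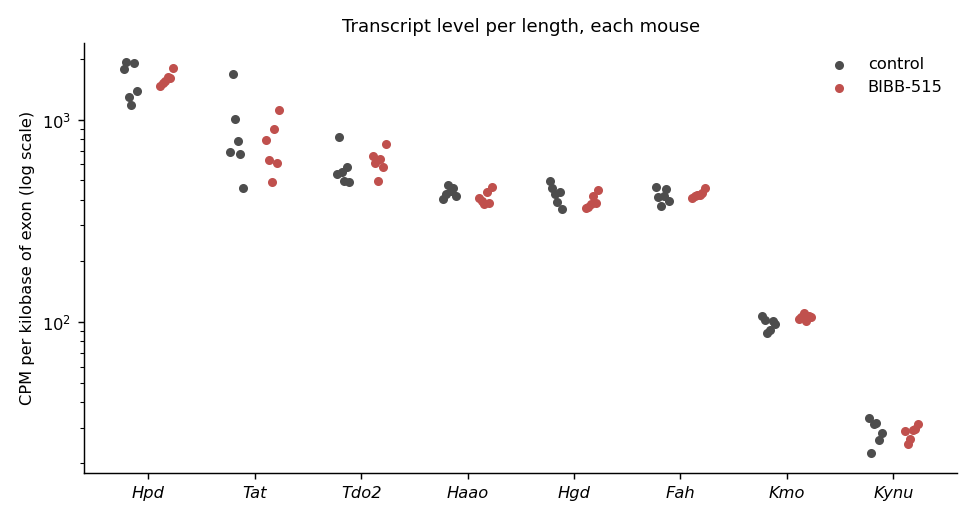
CPM per kilobase of exon (log scale) of the 8 genes in each control and BIBB-515 liver, ordered by the control mean. Hpd leads at 1580 and Kynu is last at 28.8 CPM per kilobase in control, with the means of Haao, Hgd and Fah close together.

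Compared per length, the levels of the 8 genes in control livers spanned a 54.9-fold range of mean CPM per kilobase of exon. Hpd was highest at 1580 ± 333 (SD, n = 6), followed by Tat at 883 ± 428, Tdo2 at 581 ± 121 and Haao at 439.8 ± 25.9 CPM per kilobase. Hgd at 428 ± 47.9 and Fah at 419.9 ± 34.2 came next, and Kmo at 97.7 ± 6.94 and Kynu at 28.8 ± 4.10 CPM per kilobase were last. Hpd exceeded Tat, Tdo2 exceeded Haao, Fah exceeded Kmo and Kmo exceeded Kynu in all 12 mice. Tat exceeded Tdo2 in 5 of 6 mice on each diet. Haao and Hgd were not separated beyond their spread, since Haao exceeded Hgd in 4 of 6 mice on each diet. Hgd and Fah were not separated in control, where Hgd was higher in 3 of 6 mice, while Fah exceeded Hgd in 6 of 6 BIBB-515 mice. In control livers the level per length of 6 of the genes stood at or above the 98.8th percentile of tested genes, Kmo at the 94.4th and Kynu at the 84.7th. Of the 5111 exon bases of Kynu, 1807 lie in exon 11, which held 16 to 55 reads per library. Without that exon, a comparison chosen after its values were seen, Kynu stood at 44.2 CPM per kilobase and was still last.

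**Figure D4:**
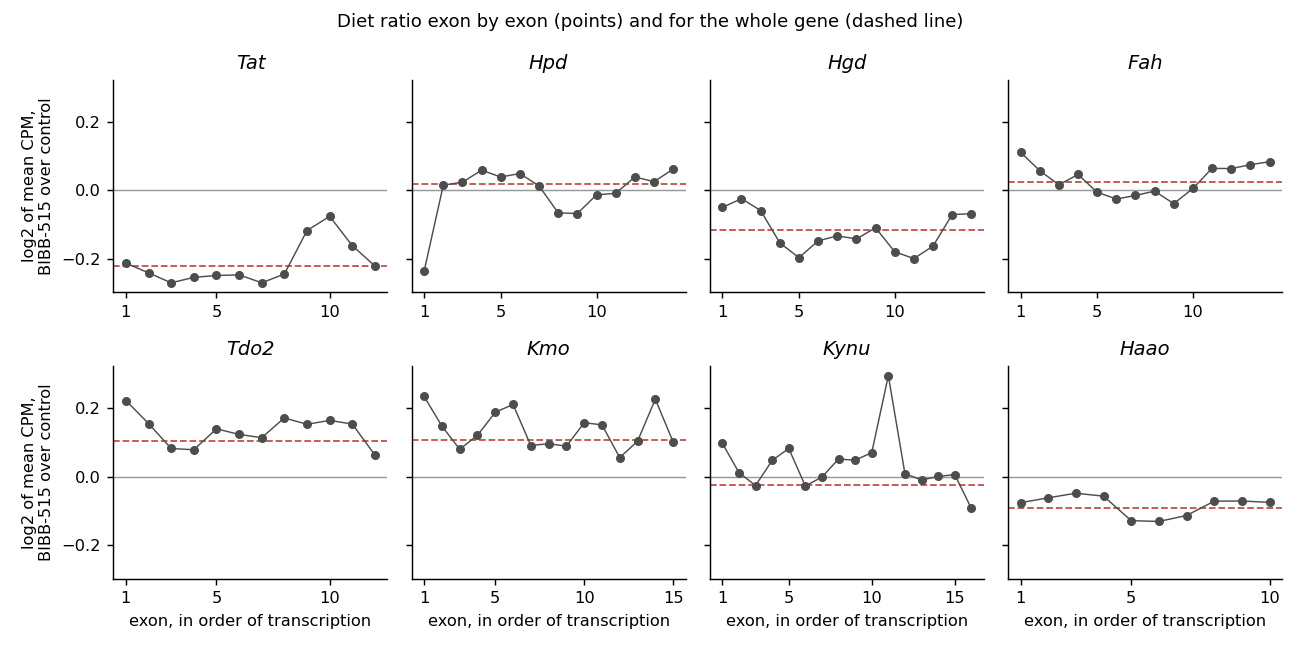
Log2 ratio of mean CPM under BIBB-515 over control for each exon (points, in order of transcription) and for the whole gene (dashed line). All exons of Tat, Hgd and Haao lie below 0 and all exons of Tdo2 and Kmo above 0, while Hpd, Fah and Kynu cross it.

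The exons of a gene share reads and mice, so their ratios describe how evenly the difference ran along the transcript and are not separate tests. All 12 exons of Tat had a log2 ratio of BIBB-515 over control below 0, from -0.27 to -0.08. All 14 exons of Hgd (from -0.20 to -0.02) and all 10 of Haao (from -0.13 to -0.05) were also below 0. The 12 exons of Tdo2, from 0.06 to 0.22, and the 15 exons of Kmo, from 0.06 to 0.23, were all above 0. Hpd ran from -0.24 to 0.06 over 14 exons, where the lowest value came from exon 1 of 13 bases (SE 0.15). Fah ran from -0.04 to 0.11 over 14 exons, and Kynu from -0.09 to 0.29 over 16, where the highest value came from exon 11 with a mean of 35 reads (SE 0.26).

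The spread between mice differed among the 8 genes. Tat had a coefficient of variation of 48.4% in control and 30.2% under BIBB-515, above 97.7% and 95.7% of tested genes, and its highest mouse stood at 3.64 times the lowest in control and 2.29 times under BIBB-515. The coefficients of Haao, Kmo and Fah were the lowest in control, at 5.90%, 7.11% and 8.15%, and those of Kmo and Fah the lowest under BIBB-515, at 3.33% and 4.15%. The coefficient of variation was larger in control than under BIBB-515 for 7 of 8 genes, all but Haao, beside 77.8% of all tested genes, whose median was 13.6% in control and 9.17% under BIBB-515. Control mouse 2 had the highest control level of Tat, Tdo2 and Hpd and the lowest of Kynu (114 CPM). In that mouse Tat was at 3989 CPM beside 1096 to 2388.5 CPM in the other control mice, and Tdo2 at 1338 CPM beside 806 to 948 CPM.

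Since Tat and Tdo2 respond to glucocorticoids, genes known to respond to them were read in the same mice. Control mouse 2 was the highest control for 9 of 13 tested genes of that list, beside 16% of all tested genes. For Tsc22d3, Zbtb16, Dusp1 and Mt1 another control mouse was higher. For Cebpb the lead of control mouse 2 was narrow, at 59.6 CPM beside 33.8 to 58.0 CPM. Per1, a clock gene, stood at 89.8 CPM beside 35.0 to 61.1 CPM in the other control mice. Igfbp1, a secreted binding protein of insulin-like growth factors, was at 350.4 CPM beside 121 to 286 CPM, and Pck1, the gluconeogenic phosphoenolpyruvate carboxykinase, was at 5759.7 CPM beside 2893 to 4088 CPM. The pattern was not particular to that mouse. Under BIBB-515, mouse 11 was the highest for Fkbp5, Tsc22d3, Dusp1, Mt1, Mt2, Cebpb, Cebpd, Igfbp1, Lcn2 and, narrowly, Pck1. Another BIBB-515 mouse was higher for Per1, Sgk1 and Zbtb16. Mouse 11 was the highest BIBB-515 mouse for 21.3% of all tested genes. Between the diets, 2 of the 13 genes were higher and 1 was lower, beside 7.18% and 6.48% of all tested genes. Cebpb, a transcription factor of the liver, rose (log2 fold change 0.60, SE 0.15, FDR 0.0180 with edgeR), as did Lcn2, a secreted lipocalin of the acute phase (1.20, SE 0.28, FDR 0.0127), while Pck1 fell by 0.56 on the log2 scale (SE 0.14, FDR 0.0188). Of 5 liver transcription factors listed as regulators, 0 passed an FDR of 0.05 (edgeR, 0 at an unadjusted p under 0.05). All 5 had a negative log2 fold change, with a median of -0.10 beside -0.01 over all tested genes. Among them Nr3c1, the glucocorticoid receptor, was at 70.2 ± 10.9 and 65.6 ± 4.76 CPM (log2 fold change -0.10, 95% interval -0.30 to 0.11, FDR 0.535). The part that the control of these genes has in the spread of Tat and Tdo2 was not tested.

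**Figure D5:**
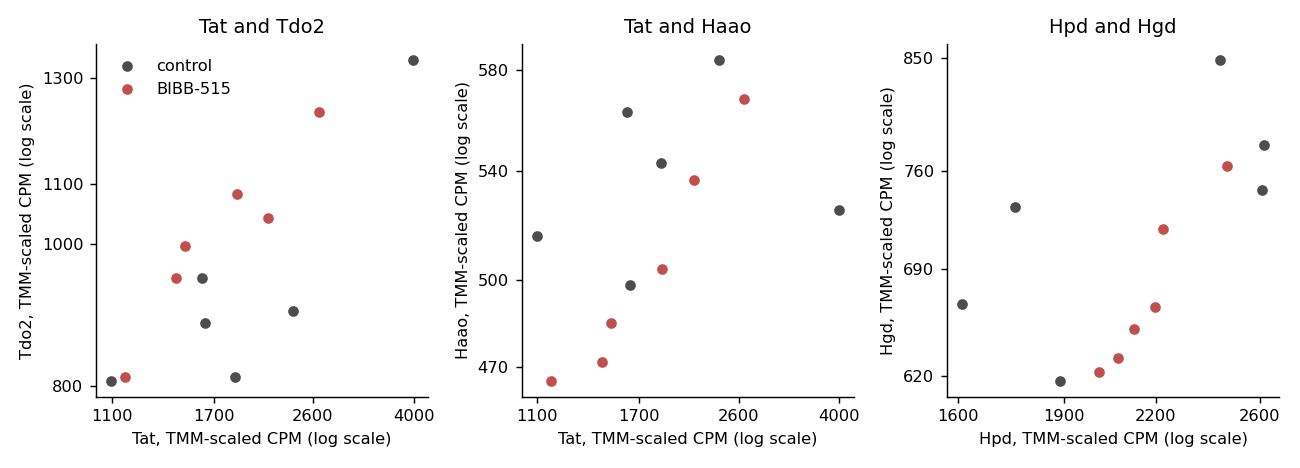
TMM-scaled CPM of Tdo2 against Tat, of Haao against Tat and of Hgd against Hpd in each mouse (log scales on all axes, control in grey, BIBB-515 in red). The BIBB-515 mice rise together in all 3 panels (r of 0.95, 0.98 and 0.96), and r of the control mice is 0.85, 0.22 and 0.68.

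Within each diet, log2 CPM was correlated between the 28 pairs of the 8 genes over 6 mice, which makes 56 relations. After adjustment over all 56, 2 passed by Pearson's r and 0 by Spearman's rho, and 8 had an unadjusted exact p under 0.05 for Pearson's r. The p counts pairings with at least the same absolute r. With the p taken as 2 times the smaller tail, 0 passed and the lowest adjusted p was 0.0778, so both calls depend on that definition. Tat and Haao had r = 0.98 under BIBB-515 (exact permutation p = 0.00139, adjusted 0.0389; rho = 1, adjusted 0.0778; r = 0.98 without the 2 mice farthest from the median of Tat), and r = 0.22 in control (exact permutation p = 0.693, adjusted 0.844; rho = 0.31, adjusted 0.801). Hpd and Hgd had r = 0.96 under BIBB-515 (exact permutation p = 0.00139, adjusted 0.0389; rho = 1, adjusted 0.0778; r = 0.89 without the 2 farthest mice), and r = 0.68 in control (exact permutation p = 0.158, adjusted 0.386; rho = 0.66, adjusted 0.490).

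Tat and Tdo2 were the single pair with r above 0.8 on both diets, and neither value passed the adjustment. Their r was 0.85 in control (exact permutation p = 0.0417, adjusted 0.292; rho = 0.60, adjusted 0.588) and rested on 2 mice, since it was -0.16 without the 2 mice farthest from the median of Tat. Under BIBB-515 it was 0.95 (exact permutation p = 0.00694, adjusted 0.0972; rho = 0.94, adjusted 0.156) and 0.80 without the 2 farthest mice. Of the 28 pairs, 15 were positively correlated in control and 22 under BIBB-515. BIBB-515 mouse 11 had the highest BIBB-515 level of 7 of the 8 genes, all but Kmo, beside 21.3% of all tested genes. Without that mouse, 18 pairs were positive under BIBB-515, and r over the remaining 5 mice was 0.95 for Tat and Haao, 0.90 for Hpd and Hgd and 0.90 for Tat and Tdo2. Without control mouse 2, 16 pairs were positive in control. The difference between the diets in these correlations was not tested, and the genes of a mouse share its library and its scaling.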

How the data were processed

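Liver RNA of 12 mice, 6 on the control diet and 6 on BIBB-515, was measured by RNA-seq, and groups were taken from the labels. The authors deposited whole-number counts of reads per gene, made with featureCounts (Subread 1.6.3) after alignment with STAR 2.5.3a (per the submitters' processing notes) to mm10 with a UCSC annotation, over exons, without strand, and without multi-mapping reads or reads on more than 1 gene. Reads of near-identical copies are therefore dropped. The library preparation and a sequencing batch are not given in the sources used here. Per-exon counts, in which a read can count for several exons, were used for the exon profile, and tables of primary alignments as an alternative.

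The filter kept 12481 of 24062 genes, those reaching 1 CPM in 2 or more of 12 samples. After TMM scaling, diet was fitted as the single term by edgeR 4.0.16 (R 4.3.3), with the quasi-likelihood test and Benjamini-Hochberg adjustment over every gene kept. Levels are TMM-scaled CPM, and log2 CPM used a prior count of 0.5. The exact permutation test of a single gene was two-sided and covered all 924 labelings (smallest p 0.00216), and that of a pair covered the pairings of 6 mice (smallest p 0.00139 for r and 0.00278 for rho). Exons with a mean of at least 10 counts were shown. The fit was tested on simulated data: among 12374 genes with 200 changed, 4.64% of calls were false and 95.2% of intervals held the true value. Those counts were drawn from the fitted model, with the same spread in both groups. In the data, the coefficient of variation was larger in control for 77.8% of tested genes. The simulation therefore checks the code and does not show how the intervals hold in these data. Alternatives were DESeq2 1.42.0, limma-voom (limma 3.58.1), edgeR's likelihood ratio test, other scalings and filters, 1 surrogate variable (sva 3.50.0) and leaving out each mouse. All 8 genes are named, and of the other lists those past FDR 0.05, with Gstz1, Afmid, Acmsd, Qprt and Nr3c1 named whatever their value. A further gene of the lists is not reported here. Per1, Igfbp1, Tsc22d3, Zbtb16, Dusp1, Mt1, Fkbp5, Mt2, Cebpd, Sgk1 and Cidec were named after their values were seen. The genes and lists were chosen with earlier results of these data known. P-values set a diet difference or a correlation against the spread between these mice.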

Additional observations from a re-analysis of the deposited data

Results flagged for a closer look

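Of 34 groups of 6 mice examined (the 8 genes and 9 other genes of the lists on each diet), 1 held a mouse far from the others. Tdo2 in control mouse 2 stood at 1338 CPM, with the next control mouse at 948 CPM. The gap was 0.733 of the whole range of the 6 control mice, beyond Dixon's 95% critical value for 6 samples. Chance alone would give about 1.7 such groups of 34. Tat in the same mouse, at 3989 CPM, had a gap of 0.553 of the control range, within the critical value.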

How the results depend on the processing

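In every fit run, 10 other settings and 12 without 1 mouse, 0 of the 8 genes passed an FDR of 0.05. The lowest FDR of any of them was 0.0726, for Kmo with scaling by library size only. Kmo had an unadjusted p under 0.05 in that setting (0.0143), with 1 surrogate variable (0.0451) and without control mouse 1 (0.0493), and Tdo2 without control mouse 2 (0.0374). Scaling by library size only moved the median log2 fold change of all tested genes by 0.05, and made 75.3% of all calls higher in place of 52.6%. In that setting the exact permutation p of Kmo was 0.00649 in place of 0.0411, Kynu turned to 0.027 (exact permutation p = 0.719) and Gstz1 to 0.018 on the log2 scale. Without 1 mouse, log2 fold changes ran from -0.365 to 0.067 for Tat, from 0.043 to 0.228 for Tdo2, from -0.042 to 0.089 for Hpd, from -0.088 to 0.022 for Kynu and from -0.074 to 0.0014 for Gstz1. The exact p-values then ran from 0.333 to 0.920 for Tat, from 0.437 to 0.961 for Hpd, from 0.273 to 0.911 for Fah, from 0.00866 to 0.0931 for Kmo, from 0.299 to 0.955 for Kynu and from 0.0368 to 0.255 for Haao. The count of other listed genes of aromatic amino acid breakdown called higher ran from 1 to 3 without 1 mouse. Acmsd passed with 1 surrogate variable (FDR 0.00332), and Nmrk1 did not pass in 5 of 10 other settings, nor Gch1 and Mccc1 without a filter. The level of Kynu without its exon 11 was 44.2 in place of 28.8 CPM per kilobase, since fewer bases divide nearly the same reads. The causes of the other changes were not tested. Of the correlations, 0 in place of 2 passed with the p taken as 2 times the smaller tail. That definition, the pairs without a mouse, the exact tests in other settings and the level of Kynu without exon 11 were chosen after seeing the data. No paired analysis was possible because the groups share a single replicate number. With 6 mice a group, the spread between mice rather than depth limits the precision.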
